A study of Sus scrofa with 5 samples.

Results

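The vascular endothelial growth factor (VEGF) and angiopoietin systems were followed through 10 genes, taken by symbol from the 30822 genes listed for each library. They are the ligands VEGFA, VEGFB, VEGFC, ANGPT1 and ANGPT2 and the receptors FLT1, KDR, FLT4, TEK and TIE1. Each symbol matched 1 row, and all 10 members reached an FPKM of 1 in at least 2 libraries, the filter that left 13087 genes for testing. FPKM is the number of sequenced fragments scaled by gene length and by the library total. The libraries came from ovarian follicles of female pigs of the Indian Ghoongroo breed, 3 from large follicles and 2 from small follicles, and follicle size is the only difference that the labels give between the groups. Animal age, follicle diameter, the number of follicles or animals behind a library and the stage of the cycle are not stated in the labels. The titles name the libraries of a group biological replicates. Whether they came from separate animals is not stated, so the p-values below speak only of the spread among these 5 libraries. The comparison asks which of these genes differ in RNA level between large and small follicles.

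VEGF ligands act on receptor tyrosine kinases of endothelial cells. VEGFA drives the growth and permeability of blood vessels mainly through KDR (VEGFR2), while FLT1 (VEGFR1) binds VEGFA, VEGFB and placental growth factor and can act as a decoy. VEGFC acts through FLT4 (VEGFR3), best known from lymphatic vessels. In the angiopoietin system ANGPT1 activates the receptor TEK (TIE2) and stabilizes vessels, ANGPT2 acts as a context-dependent antagonist at the same receptor, and TIE1 is a partner of TEK without a classical angiopoietin ligand of its own. In the ovary, blood and lymphatic vessels lie in the theca layer, outside the basement membrane of the follicle, the granulosa layer has no vessels, and granulosa and theca cells are known sources of VEGFA.

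Library totals lay between 9523739 and 11507527 fragments. Members rested on 41 fragments (ANGPT1 in small follicle library 1) to 1423 fragments (VEGFB in large follicle library 1), so none was at the limit of detection. A gene was called when its p from limma, a linear model with variances shared across genes, was under 0.05 after Benjamini-Hochberg adjustment over all genes tested. Of the 13087 genes 128 were called, or 0.978%. Replicate libraries of 1 group differed by more than sampling noise in all 4 pairs, with a chi-square per gene of at least 28.5.

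No member of the VEGF and angiopoietin systems was called. The limma count was 0 of 10, against 0.978% of all genes tested (0.535% higher and 0.443% lower in large follicles), and limma voom on fragments recovered from the FPKM steps also called 0. At an unadjusted limma p under 0.05 there was 1 member, FLT4, or 1 of 10 against 10.4% of all genes tested. The values of 3 members did not overlap between the groups: FLT4 and TIE1 were higher in every large follicle library, and ANGPT2 was higher in every small follicle library. Among all genes tested 26.1% did not overlap, 10.9% with the large follicles higher and 15.2% with them lower, so 3 of 10 is close to the background. The members' median log2 fold change was 0.00, beside -0.08 over all genes tested. Fold changes are given as log2(FPKM + 1) in large minus that in small follicles, a scale that shrinks changes of weakly expressed genes.

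**Figure D1:**
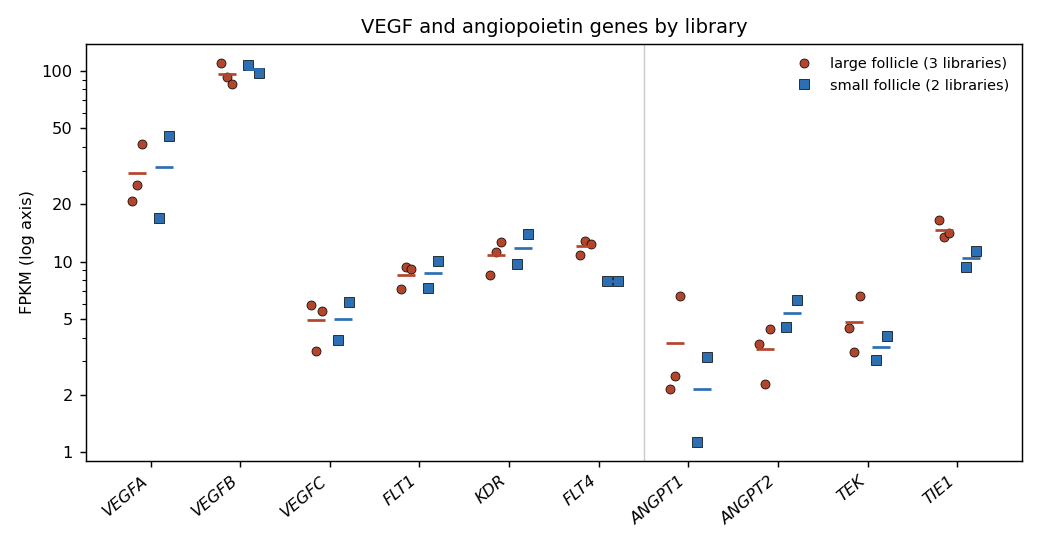
FPKM (log axis) of the 10 members in each library, with red circles for the 3 large follicle libraries, blue squares for the 2 small follicle libraries and short bars for group means. VEGFB and VEGFA lie above the other members in every library, and the groups separate for FLT4, TIE1 and ANGPT2 only.

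The members spanned a wide range of RNA levels, in the same rough order in every library. VEGFB was the most abundant, at 85.5 to 110 FPKM over the 5 libraries, and VEGFA followed at 16.9 to 45.5 FPKM. These ranges overlapped neither each other nor that of TIE1, the next gene, at 9.41 to 16.6 FPKM. TIE1, KDR, FLT4 and FLT1 formed a middle group in which neighbours in the order were not separated beyond their spread: TIE1 exceeded KDR in 3 of 5 libraries, KDR exceeded FLT4 in 3 of 5, and FLT4 exceeded FLT1 in 4 of 5. FLT1 was above VEGFC in 5 of 5 libraries. VEGFC, TEK, ANGPT2 and ANGPT1 formed the lowest group, where VEGFC exceeded TEK in 4 of 5 libraries, TEK exceeded ANGPT2 in 3 of 5 and ANGPT2 exceeded ANGPT1 in 3 of 5. These comparisons between genes depend on the gene length behind the FPKM values. For 9 of the members that length, worked back from the values, was shorter than the length listed in the files (1825 against 3201 bases for VEGFA and 6259 against 10990 bases for TIE1), while it was the listed 5930 bases for FLT4.

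Among the VEGF ligands, RNA for the main angiogenic factor had near-equal means in small and large follicles, and its level differed strongly between replicate libraries. VEGFA (gene 397157, Sscrofa11.1 chromosome 7, 38746393 to 38762282) had 20.8, 25.1 and 41.5 FPKM in large follicle libraries 1, 2 and 3, and 16.9 and 45.5 FPKM in small follicle libraries 1 and 2. Both the lowest and the highest value came from small follicles, so the groups overlapped entirely. The means were 29.2 ± 10.9 FPKM (SD, n = 3) and 31.2 ± 20.2 FPKM (SD, n = 2), with a log2 fold change of 0.00 (95% interval -0.91 to 0.92, limma adjusted p = 0.998). The interval reaches almost a log2 unit in each direction, so the data do not show that the levels are alike. VEGFA had a residual SD of 0.69 log2 units within groups, beside a median of 0.30 over all genes tested, and 96.6% of those genes varied less. Leaving out small follicle replicate 1 gave a log2 fold change of -0.68, and leaving out small follicle replicate 2 gave 0.69.

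VEGFB, a ligand of FLT1 that is linked more to vessel survival and metabolism than to sprouting, varied least among the ligands in FPKM. It lies on chromosome 2 (gene 100521837, 7872873 to 7876149) and had 110, 92.6 and 85.5 FPKM in large and 107 and 97.4 FPKM in small follicles. The highest library was 1.28-fold above the lowest (1.56-fold after division by median-of-ratios factors, where VEGFC varied less, at 1.42-fold), and the log2 fold change was -0.10 (95% interval -0.55 to 0.36, limma adjusted p = 0.931). The start of VEGFB overlaps the start of TRPT1, annotated on the other strand, by a short stretch, and the labels do not state whether counting used the strand. VEGFC, the ligand of FLT4 (gene 100525960, chromosome 15, 39037764 to 39136234), had 5.92, 3.39 and 5.49 FPKM in large and 3.89 and 6.14 FPKM in small follicles. Its groups overlapped as well, with a log2 fold change of -0.02 (95% interval -0.75 to 0.71, limma adjusted p = 0.994).

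Of the 3 VEGF receptors, the 2 that bind VEGFA overlapped between the follicle sizes, and FLT4 had higher values in large follicles that did not pass the test. FLT1 (gene 396763, chromosome 11, 5620698 to 5797095) had 7.20, 9.34 and 9.11 FPKM in large and 7.26 and 10.1 FPKM in small follicles. Its log2 fold change was -0.01 (95% interval -0.62 to 0.59, limma adjusted p = 0.995). The files give 1 value per gene, so soluble and membrane forms of FLT1 were not separated. KDR, the main signalling receptor for VEGFA (gene 397311, chromosome 8, 41809116 to 41856379), had 8.56, 11.2 and 12.7 FPKM in large and 9.75 and 13.9 FPKM in small follicles. Here too the highest value came from small follicle library 2, and the log2 fold change was -0.12 (95% interval -0.73 to 0.50, limma adjusted p = 0.938).

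FLT4, the receptor of VEGFC and VEGFD (gene 100518179, chromosome 2, 78076008 to 78115137), had 10.9, 12.8 and 12.4 FPKM in large and 7.91 and 7.93 FPKM in small follicles. Every large follicle library was above both small follicle libraries, and replicates lay close together. The means were 12 ± 0.988 FPKM (SD, n = 3) and 7.92 ± 0.00997 FPKM (SD, n = 2), a ratio of 1.52. The log2 fold change was 0.54 (95% interval 0.01 to 1.08), with an unadjusted limma p of 0.0474 and a limma adjusted p = 0.471. Across the 13 alternatives the limma adjusted p of FLT4 ran from 0.237 to 1, and its log2 fold change from 0.40 to 0.65.

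**Figure D2:**
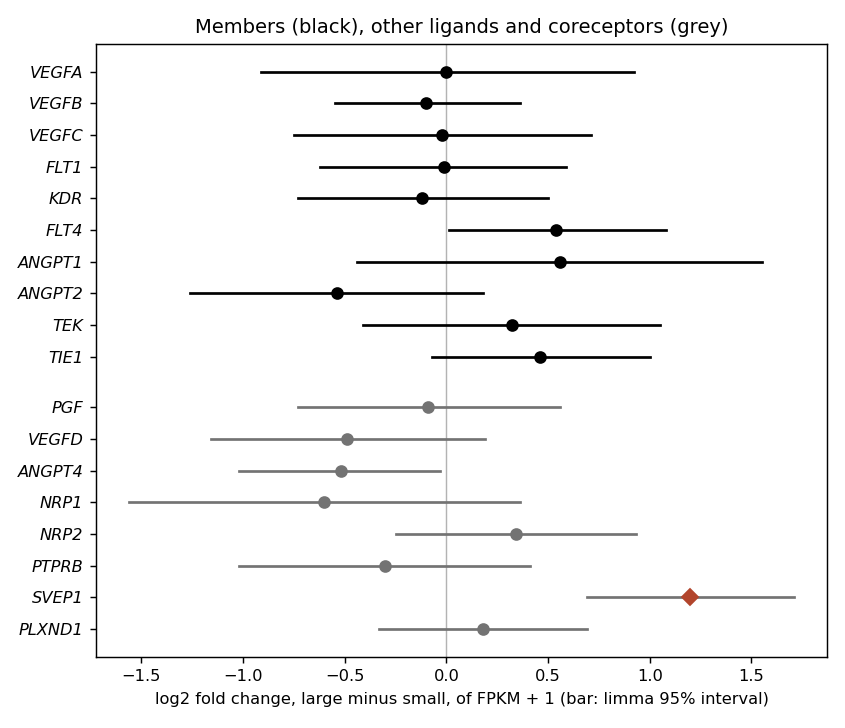
Log2 fold change of FPKM + 1, large minus small follicles, with limma 95% intervals, for the 10 members (black) and 8 other ligands and coreceptors (grey). SVEP1 (red diamond), at 1.20, is the called gene, and the intervals of all members except FLT4 include 0.

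In the angiopoietin system the ligands had opposite signs and neither passed the test. ANGPT1, the TEK agonist (gene 397009, chromosome 4, 29925203 to 30233434), had 2.14, 2.51 and 6.64 FPKM in large and 1.14 and 3.16 FPKM in small follicles. The highest library was 5.84-fold above the lowest, the widest span of any member, and the groups overlapped. Its log2 fold change was 0.56 (95% interval -0.44 to 1.55, limma adjusted p = 0.766), 0.08 without small follicle replicate 1 and 0.15 without large follicle replicate 3. ANGPT2, the context-dependent antagonist (gene 396730, chromosome 15, 37544177 to 37600925), had 3.70, 2.28 and 4.42 FPKM in large and 4.52 and 6.29 FPKM in small follicles. Both small follicle libraries were above all large ones, but small follicle library 1 exceeded large follicle library 3 by little. The means were 3.47 ± 1.09 FPKM (SD, n = 3) and 5.41 ± 1.25 FPKM (SD, n = 2), with a log2 fold change of -0.54 (95% interval -1.26 to 0.18, limma adjusted p = 0.658). ANGPT2 lies within the annotated span of MCPH1 on the other strand, so fragments of the 2 genes cannot be told apart where exons overlap if counting ignored the strand.

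The balance of ANGPT2 to ANGPT1 within each library had lower values in large follicles, a difference that did not pass the test. The ratio of their FPKM was 1.73, 0.908 and 0.666 in large follicle libraries 1, 2 and 3, and 3.98 and 1.99 in small follicle libraries 1 and 2. ANGPT2 thus exceeded ANGPT1 in both small follicle libraries and in 1 of 3 large ones, and the groups did not overlap. The difference of the log2 ratios of FPKM + 1 was -1.09, with a two-sided exact permutation p = 0.2, where 3 against 2 libraries cannot go below 0.1. Adjusted over the 5 balances examined it was 0.9 (exact permutation test). The difference was -0.81 without small follicle replicate 1 and -1.39 without large follicle replicate 1.

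**Figure D3:**
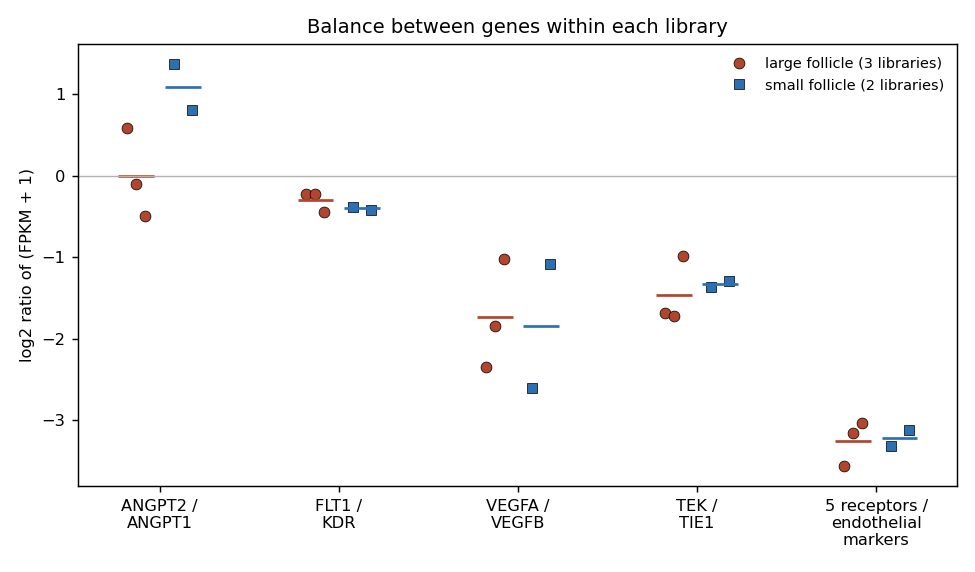
Log2 ratio of FPKM + 1 between the named genes within each library, with red circles for large follicle libraries, blue squares for small follicle libraries and bars for group means. The groups separate for ANGPT2 over ANGPT1, where the large follicles are lower by 1.09, and overlap for the other 4 balances. The separated balance did not pass the test (exact permutation p = 0.2, adjusted 0.9).

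The TIE receptors differed in how firmly the groups were separated. TEK, the receptor of both angiopoietins (gene 396729, chromosome 1, 195938177 to 196052294), had 4.47, 3.36 and 6.60 FPKM in large and 3.04 and 4.08 FPKM in small follicles. The groups overlapped, the end of TEK meets the span of a gene on the other strand, and the log2 fold change was 0.32 (95% interval -0.41 to 1.05, limma adjusted p = 0.838). TIE1, the partner of TEK (gene 494022, chromosome 6, 167919662 to 167947253), had 16.6, 13.4 and 14.1 FPKM in large and 9.41 and 11.4 FPKM in small follicles. All large follicle libraries exceeded both small ones, by means of 14.7 ± 1.70 FPKM (SD, n = 3) against 10.4 ± 1.40 FPKM (SD, n = 2). The log2 fold change of TIE1 was 0.46 (95% interval -0.07 to 1.0, limma adjusted p = 0.576), and its adjusted p ran from 0.237 to 1 across the alternatives. The balances of TEK over TIE1, FLT1 over KDR and VEGFA over VEGFB overlapped between the groups, with differences of -0.14, 0.10 and 0.10 log2 units and exact permutation p of 0.7, 0.4 and 0.9.

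Much of the variation of the members ran between libraries of 1 group rather than between the groups. Of the 10 members, 5 had their highest value in small follicle library 2 (VEGFA, VEGFC, FLT1, KDR and ANGPT2) and 0 in small follicle library 1. That library held the lowest value of 5 members (VEGFA, FLT4, ANGPT1, TEK and TIE1). The typical gene moved the same way: median-of-ratios factors, which measure a library's level over genes found in all 5, were 1.22 in small follicle library 2 and 0.902 in small follicle library 1, and 1.02, 0.832 and 1.12 in large follicle libraries 1, 2 and 3. After division by these factors, 2 members were highest and 3 lowest in small follicle library 2, and 1 was highest and 2 lowest in small follicle library 1. VEGFA kept its split after scaling, with 20.4, 30.2 and 37.1 in large and 18.8 and 37.3 in small follicles. TEK then separated between the groups, at 4.38, 4.03 and 5.90 against 3.37 and 3.35, with a limma adjusted p = 0.495 under that scaling and 0.344 to 1 over its alternatives. FLT4, TIE1 and ANGPT2 remained separated. The share of all genes tested that separate after this scaling was not examined, so these separations are descriptions.

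**Figure D4:**
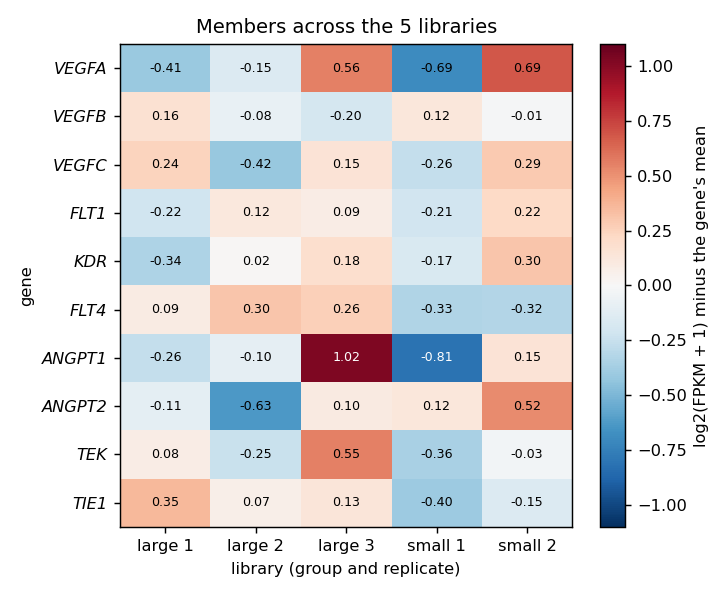
Log2(FPKM + 1) of each member in each library minus the gene's mean over the 5 libraries, red above and blue below that mean. Small follicle library 1 is blue for 8 of the 10 members, and only FLT4 and TIE1 have opposite colours in the 2 groups.

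The genes whose values followed VEGFA most closely were found by the root mean square difference of centred log2(FPKM + 1) values over the 5 libraries, among 11722 tested genes with a symbol. They were GREB1L, TMA16 and GIN1, at 0.118, 0.141 and 0.157, beside a median of 0.485 over all those genes. GREB1L had 4.03, 5.23 and 8.43 FPKM in large and 3.12 and 7.78 FPKM in small follicles, so it had the same order of small follicle libraries as VEGFA. For ANGPT2 the nearest were GTF3C6, DAB1 and INTS2, at 0.025, 0.044 and 0.046 beside a median of 0.337. With 5 libraries that also differ in the level of the typical gene (median-of-ratios factors of 0.832 to 1.22), such likeness is a description.

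Among 51 further genes of both systems, 50 were in the files, 46 were tested and 1 was called higher in large follicles, SVEP1, beside 0.978% of all genes tested. None was called lower, and 5 of 46 had an unadjusted limma p under 0.05, beside 10.4% of all genes tested. Their median log2 fold change was -0.08, equal to that of all genes tested, and 11 of 46 did not overlap between the groups, beside 26.1% of all genes tested. SVEP1, a large extracellular matrix protein of vessel surroundings that is reported to bind TIE1 (gene 100155613, chromosome 1, 251367401 to 251571799), rose in large follicles. It had 17.9, 17.1 and 19.2 FPKM in large and 7.07 and 7.57 FPKM in small follicles, which is a ratio of 2.47 between means of 18.1 ± 1.06 FPKM (SD, n = 3) and 7.32 ± 0.353 FPKM (SD, n = 2). The groups lay far apart beside the spread of replicates, and the log2 fold change was 1.20 (SE 0.23, limma adjusted p = 0.0476). The call was close to the threshold. The limma adjusted p was 0.172 when large follicle replicate 1 was left out and 0.0792 for replicate 3. Leaving out small follicle replicate 1 gave 0.220, and leaving out the other small follicle library (replicate 2) gave 0.213. It was 0.0583 with a pseudocount of 5, 0.113 with no filter on low values, 0.0598 with a stricter filter (mean FPKM of 5 or more) and 0.409 with a replicate block, and stayed under 0.05 in the other alternatives, at 0.0223 to 0.0470. Its log2 fold change stayed between 0.91 and 1.3.

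Of the 8 other ligands and coreceptors, 3 had higher and 5 lower values in large follicles. ANGPT4, a further TEK ligand (gene 100515978, chromosome 17, 34345926 to 34394977), was the most abundant angiopoietin in these libraries. It had 15.8, 14.7 and 15.1 FPKM in large and 25.1 and 19.8 FPKM in small follicles, above ANGPT1 and ANGPT2 in every library. Its groups did not overlap, with a log2 fold change of -0.52 (95% interval -1.02 to -0.03, limma adjusted p = 0.450). ANGPT4 was not among the genes fixed to be named and was chosen after its values were seen, and its span holds an annotated noncoding gene on the other strand. VEGFD, the other ligand of FLT4, had 8.90, 5.37 and 10.4 FPKM in large and 11.7 and 11.4 FPKM in small follicles, a log2 difference of -0.49 (limma adjusted p = 0.678). PGF, a ligand of FLT1, lay between 4.21 and 5.98 FPKM with no separation of the groups (log2 fold change -0.09, limma adjusted p = 0.958). The coreceptor NRP1 ran from 7.90 FPKM in large follicle library 2 to 32.9 FPKM in small follicle library 2, with a log2 difference of -0.60 (limma adjusted p = 0.726), and NRP2, a coreceptor of the lymphatic ligands, had 0.34 (limma adjusted p = 0.753). PTPRB, the endothelial phosphatase that restrains TEK, had -0.30 (limma adjusted p = 0.844).

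In the signalling list 6 of 18 tested genes had higher and 12 lower values, in the endothelial response list 7 of 10 had higher and 3 lower values, and in the list of inhibitors and matrix modulators 5 of 10 had higher and 5 lower values. No gene of these 3 lists was called by limma, and 2 of 18, 1 of 10 and 0 of 10 had an unadjusted p under 0.05, beside 10.4% of all genes tested. These were DOK2, an adaptor of TEK signalling, PRKCB, a protein kinase C, and APLNR, the apelin receptor, all named after their values were seen. DOK2 had 6.12, 8.09 and 7.62 FPKM in large and 3.84 and 4.24 FPKM in small follicles (log2 fold change 0.71, limma adjusted p = 0.381). PRKCB and APLNR had log2 fold changes of -0.81 and 0.73 (limma adjusted p = 0.389 and 0.304). DLL4, the Notch ligand of sprouting tip cells, had 16.4, 17.8 and 21.2 FPKM in large and 10 and 19.2 FPKM in small follicles (log2 fold change 0.37, limma adjusted p = 0.760). ESM1, a tip cell gene induced by VEGFA, was low at 0.655 to 2.02 FPKM, with both extremes in small follicles and a log2 difference of -0.15 (limma adjusted p = 0.927). Among the inhibitors, THBS1 was abundant at 57.1 to 115 FPKM, again with both extremes in small follicles (log2 fold change 0.03, limma adjusted p = 0.990), and VASH1 lay at 2.86 to 4.27 FPKM (log2 fold change -0.07, limma adjusted p = 0.965).

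Markers of blood and lymphatic endothelium were present in every library, and their summed FPKM was higher in every large follicle library, beside the higher values of FLT4 and TIE1. After division by the median-of-ratios factors, a check added after the data were seen, the blood endothelial sums overlapped, at 563, 545 and 409 in large and 423 and 345 in small follicles, while the lymphatic sums did not, at 1121 to 2150 against 390 to 840. In bulk follicles, more cells of a type and more RNA per cell cannot be told apart. Of 15 blood endothelial markers 12 had higher and 3 lower values, 0 were called by limma and 1, PECAM1, had an unadjusted p under 0.05 (10.4% over all genes tested), and their summed FPKM was 454 to 574 in large and 382 to 421 in small follicles. PECAM1, an endothelial adhesion molecule, had 51.5, 52.8 and 57.2 FPKM in large and 32.6 and 38.9 FPKM in small follicles, a ratio of 1.51 (log2 fold change 0.58, limma adjusted p = 0.309). CDH5, the endothelial cadherin, and VWF, a clotting protein stored in endothelium, overlapped between the groups, with log2 fold changes of -0.18 and 0.05 (limma adjusted p = 0.879 and 0.968). The summed FPKM of the 5 receptors over that of these markers was 0.0832, 0.11 and 0.12 in large and 0.0979 and 0.113 in small follicles. This balance overlapped between the groups (difference of log2 ratios -0.03, exact permutation p = 0.9).

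Set against the same markers, FLT4 overlapped between the groups, at 0.0190, 0.0282 and 0.0271 of their sum in large and 0.0207 and 0.0188 in small follicles. Only large follicle library 1 made this overlap. Its marker sum of 574 FPKM held 154 FPKM of EGFL7, a marker at 52.1 to 88.9 FPKM elsewhere and named after its values were seen. Shares without EGFL7 were not examined, and the part of EGFL7 in this overlap was not tested. TIE1 stayed apart by a small step, at 0.0289, 0.0294 and 0.0308 against 0.0246 and 0.0271. The shares of FLT1, KDR and TEK overlapped between the groups. Their differences of log2 ratios of FPKM + 1, large minus small, were -0.31, -0.41 and 0.03. For FLT4 and TIE1 these differences were 0.25 and 0.17. All these shares are given as descriptions without a test. Of 6 lymphatic endothelial markers 5 had higher and 1 lower values, 0 were called by limma and 2, PDPN and CCL21 (named after their values were seen), had an unadjusted p under 0.05, again beside 10.4% of all genes tested. Their summed FPKM, mostly from the chemokine CCL21, was 1256 to 1789 in large and 475 to 758 in small follicles. PROX1, the defining transcription factor of lymphatic endothelium, was low at 1.02 to 2.39 FPKM, and LYVE1, a hyaluronan receptor also found on macrophages, had 16.9 to 22.9 FPKM. Both overlapped between the groups (log2 fold changes 0.18 and -0.14, limma adjusted p = 0.905 and 0.902).

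**Figure D5:**
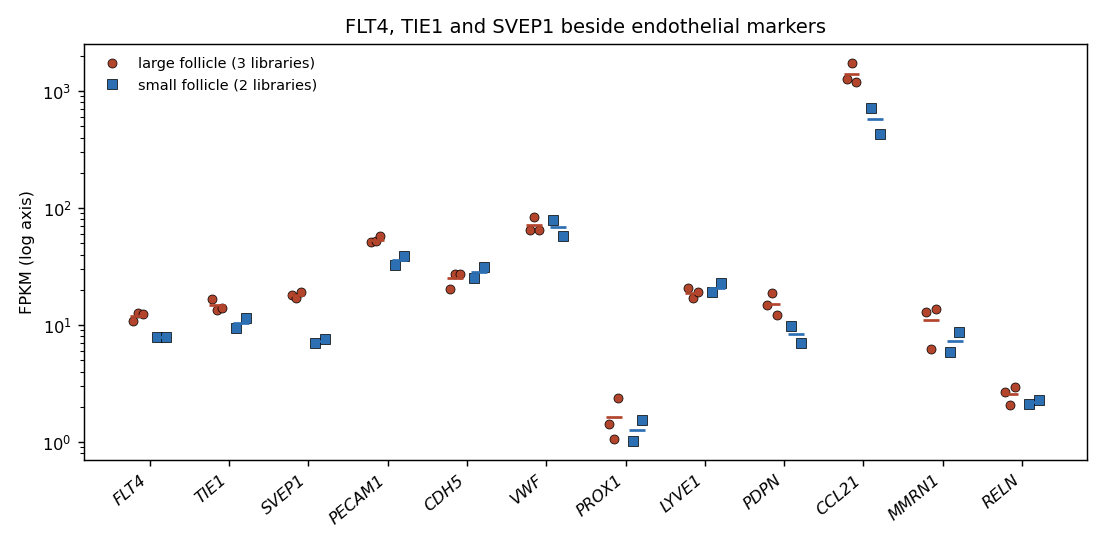
FPKM (log axis) of FLT4, TIE1 and SVEP1 beside 3 blood endothelial markers (PECAM1, CDH5 and VWF) and the 6 lymphatic endothelial markers (PROX1 to RELN), with red circles for large and blue squares for small follicle libraries and bars for group means. The groups are apart for FLT4, TIE1, SVEP1, PECAM1, PDPN and CCL21 and overlap for the others.

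Markers of other cell types are given for comparison. Markers of pericytes and smooth muscle, listed as mural, were split at 5 higher and 5 lower among 10 tested. Their summed FPKM was 3694 to 4405 in large and 3088 to 3151 in small follicles. These sums overlapped after scaling (3298 to 5295 against 2582 to 3424). In bulk follicles these markers do not tell vessel walls from other smooth muscle. Most of the mural sum came from ACTA2 and TAGLN. The groups did not overlap for 4 of the 10, beside 26.1% of all genes tested. ACTA2 and TAGLN were higher in large follicles, and NOTCH3 and MYH11 lower. These genes are named after their values were seen. PDGFRB, a pericyte receptor, stood at a log2 difference of -0.02 (limma adjusted p = 0.990). RGS5, a pericyte signalling regulator, had 20.1, 14.5 and 28.5 FPKM in large and 26.6 and 49.7 FPKM in small follicles (log2 fold change -0.81, limma adjusted p = 0.426). All 3 red cell markers had higher values in large follicles, with summed FPKM of 1003 to 1675 against 233 to 701. HBB, the hemoglobin beta chain, stood at a log2 difference of 1.68 (limma adjusted p = 0.142). HBB passed the test with a replicate block (1.87, limma adjusted p = 0.000177), without large follicle replicate 3 (1.87, limma adjusted p = 0.0192) and without small follicle replicate 1 (2.48, limma adjusted p = 0.0158). Leaving out the other small follicle library (replicate 2) brought its log2 difference to 0.89, with a limma adjusted p of 0.718. Of 9 granulosa markers 3 had higher and 6 lower values in large follicles, with a median log2 fold change of -0.53. Their summed FPKM overlapped, at 5551 to 13930 against 4241 to 5812, most of it from the inhibin subunit INHA (4474 to 11739 against 2876 to 3515 FPKM). After scaling the granulosa sums did not overlap, at 5442 to 16743 in large and 4702 to 4764 in small follicles. Of 7 theca markers 4 had higher and 3 lower values, with a sum of 1845 to 3903 against 757 to 1097 FPKM. Of this sum CYP17A1 held 726, 2451 and 1043 FPKM in large and 145 and 147 FPKM in small follicles. The 3 lower genes, PTCH1, GLI1 and NR2F2, are named after their values were seen. All 8 myeloid markers had higher values, with a sum of 237 to 380 against 109 to 126 FPKM. Calls in these 3 lists were 1 of 9 lower (INHBB), 1 of 7 higher (CYP17A1) and 1 of 8 higher (LYZ). Over all genes tested the share called was 0.978%, and these genes are named here after their values were seen. An unadjusted limma p under 0.05 was found for 6 of 9 granulosa, 4 of 7 theca and 5 of 8 myeloid markers. For mural and red cell markers it was 3 of 10 and 3 of 3, beside 10.4% of all genes tested. The part of these cell types in the values of the VEGF and angiopoietin genes was not tested.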

How the data were processed

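Gene expression was measured by RNA sequencing in 3 large follicle and 2 small follicle libraries, grouped and numbered by their titles. Per the labels' protocols, RNA was extracted with TRIzol and made into paired-end libraries with a stranded mRNA kit. The authors deposited FPKM values per gene, per the file headers. The submitters' processing notes list the aligner HISAT2 2.0.5, the build Sscrofa11.1, the counter featureCounts 1.5.0-p3, the assembler StringTie 1.3.3, the trimmer Trimmomatic 0.38 and the quality tool FastQC 0.11.4 without saying how each was used.

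From these values, log2(FPKM + 1) was fitted with limma 3.58.1 in R 4.3.3 (variance trend, group as only term, two-sided), for genes that reached 1 FPKM in 2 or more libraries. Library totals and whole fragments were worked back from FPKM steps: 49.5% of the 23353 genes above 0 gave whole fragments, within 0.001, at the listed length, and the rest at a shorter length found by search. Depth sets the counting error only: 3 fragments in a gene of 2000 bases equal 0.130 to 0.158 FPKM. Alternatives were other pseudocounts, filters and scalings, a replicate block, voom and each library left out. Gene coordinates are those of the files; chromosome numbers come from the RefSeq table of the same assembly, which matched 30335 identifiers. The fit was tested on simulated data with 200 changed genes in each of 20 runs. It called 21% of 2-fold, 92% of 4-fold and 99.4% of 8-fold changes, so most simulated 2-fold changes were not called. Of its calls 7.62% were false. Counting noise was added to a spread that already held it, and noise was drawn independently for each gene. These shares therefore describe the simulated data only. Named genes were the 10 members, 9 fixed pathway genes with any called one, 8 fixed markers, and the 3 nearest profiles of VEGFA and ANGPT2. Members and lists were chosen with earlier results of these data known. Sequences are not used here.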

Additional observations from a re-analysis of the deposited data

How the results depend on the processing

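Members called by limma remained 0 of those tested in each of the 13 alternatives. The 128 called genes became 32 with no filter on low values, 41 at a mean FPKM of at least 5, 210 under scaling by median-of-ratios factors, 201 after quantile normalization and 70 with limma voom, and 29 to 268 with 1 library left out. The 1 called pathway gene became 0 with a pseudocount of 5, no filter, a mean FPKM of at least 5 or a replicate block, and 0 to 1 with 1 library left out. The cause was not tested.

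Signs reversed for genes whose log2 fold change over all libraries lay between -0.15 and 0.37. VEGFA had -0.01 with a pseudocount of 5, -0.27 with a replicate block, -0.01 with voom and -0.68 to 0.69 with 1 library left out. VEGFC had 0.05 under median-of-ratios scaling, 0.10 after quantile normalization and -0.29 to 0.25 with 1 library left out, and FLT1 had 0.07, 0.10 and -0.23 to 0.20. Quantile normalization gave 0.02 for PGF, -0.06 for THBS1, 0.07 for VASH1 and -0.01 for VWF. The replicate block gave -0.04 for THBS1 and -0.02 for PROX1, and median-of-ratios scaling 0.07 for PDGFRB. With 1 library left out the ranges were -0.35 to 0.12 for KDR, -0.30 to 0.12 for PGF, -0.59 to 0.28 for ESM1, -0.06 to 0.81 for DLL4, -0.47 to 0.52 for THBS1, -0.18 to 0.05 for VASH1, -0.17 to 0.27 for VWF, -0.02 to 0.35 for PROX1 and -0.25 to 0.21 for PDGFRB. The balance of VEGFA over VEGFB ranged from -0.65 to 0.86 and that of the 5 receptors over endothelial markers from -0.14 to 0.12. FLT4, TIE1, TEK, ANGPT1, ANGPT2 and VEGFB kept their sign in the 12 or 13 alternatives that gave them a value.

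Whether the numbers shared by the groups mark a pairing is not known. Deviations from the group means correlated at -0.00148 for replicate 1 and -0.449 for replicate 2 of both groups. The 2 small follicle libraries deviate from their mean by equal and opposite amounts, so these correlations cannot decide on a pairing. With the replicate block, where large follicle replicate 3 no longer bears on the comparison, 157 genes, 0 members and 0 pathway genes were called. Each member had at least 41 fragments in each library. The limma standard errors of the members' log2 fold changes were 0.20 to 0.44 with 3 against 2 libraries.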
